A study of Arabidopsis thaliana with 12 samples.

Results

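Small auxin up RNA (SAUR) genes encode short, unstable plant proteins, and the levels of 59 of them, listed by locus code, were followed here in pistils and inflorescence meristems of Arabidopsis thaliana with and without FRUITFULL (FUL). All 59 had a row among the 36917 genes of the deposited count table. In the acid growth model, auxin raises SAUR transcripts, and SAUR proteins bind and inhibit the PP2C.D protein phosphatases. These phosphatases otherwise switch off the proton pumps of the plasma membrane, so that more SAUR protein means an acidified wall and faster cell expansion. FUL is a MADS-domain transcription factor needed for valve growth in the fruit and active in the inflorescence meristem, and SAUR10 is a known target that it represses in stems and cauline leaves.

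The data were 12 RNA sequencing libraries, 3 biological replicates in each of 4 groups, each library made from about 20 pooled organs of plants grown without treatment at 21 °C in 16 h of light and 8 h of dark. The pistil groups, which include young siliques and span floral stages 12 to 16, were Landsberg erecta plants (Ler), either wild type or carrying ful-1. The meristem groups were Columbia plants (Col-0), either wild type or carrying ful-7 (SALK_033647), dissected to the inflorescence meristem and its youngest buds, up to stages 3 to 4. The study's title asks how FUL selects its targets, and the design sets each mutant against its wild type within a tissue. Tissue, ecotype and allele change together between the pistil and meristem libraries and cannot be told apart, and each sample is a whole organ in which fewer cells of a type and less RNA per cell cannot be told apart either. The 5 pistil marker genes summed to 320 to 352 TMM-scaled CPM in Ler pistils and 26.6 to 56.6 in Col-0 meristems. The 5 meristem markers summed to 21.3 to 29.3 and 240.5 to 286 CPM in the same order. CPM here are counts relative to the library total multiplied by its TMM scaling factor.

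Library totals ran from 27545430 to 83606724 counts, apart from ful-1 library 3 with 13191949. That library stood apart before any SAUR gene is considered: its rank correlation with the other 5 pistil libraries was 0.811 to 0.826 across genes, against 0.971 to 0.993 among those 5, and 2.04% of its counts were plastid genes against 0.118% to 0.393%. Its TMM factor was 0.736, against 1.02 to 1.12 in the other pistil libraries, which raises all its printed CPM relative to theirs. Pistil fold changes of SAUR genes are therefore given with all 6 libraries and without it. FUL itself checked the labels. It stood at 95.3, 107 and 153 CPM in Col-0 meristems and at 2.44, 1.71 and 3.29 in ful-7, a log2 fold change of −5.56 ± 0.29 (SE; adjusted p = 0.000359, edgeR's quasi-likelihood test). In pistils FUL stood at 104, 107 and 96.1 CPM in Ler and at 8.87, 9.76 and 2.58 in ful-1, so library 3 was low for FUL like the other ful-1 libraries.

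Many SAUR genes lie in runs of neighbours, some near-identical and others much less alike. The run that the pistil results turn on is SAUR19 to SAUR24 on chromosome 5, at chr5:5962773-5984308 of the TAIR10.1 assembly (21.5 kb). SAUR19 is the member for which inhibition of PP2C.D phosphatases was worked out in Arabidopsis. They are SAUR19 (AT5G18010), SAUR20 (AT5G18020), SAUR21 (AT5G18030), SAUR22 (AT5G18050), SAUR23 (AT5G18060) and SAUR24 (AT5G18080), and each is 1 exon block. The first 54 coding bases, read 5′ to 3′ on the coding strand from RefSeq (TAIR10.1), show how alike they are, with capitals at bases that differ from SAUR19, the first gene of the run:
SAUR19: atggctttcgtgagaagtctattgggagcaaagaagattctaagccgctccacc
SAUR20: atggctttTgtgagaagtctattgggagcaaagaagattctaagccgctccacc
SAUR21: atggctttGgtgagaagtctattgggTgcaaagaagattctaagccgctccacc
SAUR22: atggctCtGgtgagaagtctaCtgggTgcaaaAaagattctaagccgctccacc
SAUR23: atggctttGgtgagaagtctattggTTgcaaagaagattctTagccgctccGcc
SAUR24: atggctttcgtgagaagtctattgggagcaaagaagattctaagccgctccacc
SAUR19 and SAUR24 share all 54 of these bases, and their whole coding sequences were 95.2% identical. SAUR20 differs from them at 1 position, SAUR21 at 2 and SAUR22 and SAUR23 at 5 each, and the coding sequences of SAUR22 and SAUR23 were 93.0% identical to each other. No stretch of 150 bases, the length of 1 sequencing read, occurs in more than 1 place in the genome for any of the 6, whereas stretches of 50 bases do, over 0.573% of SAUR22 up to 18.5% of SAUR19. The sources used here do not say how reads that fit several copies were counted, so the sum over the run is reported beside its single genes.

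The 250 bases before the annotated start were less alike than the coding sequences. They are shown for SAUR22 and SAUR23, the 2 genes of the run with the largest pistil differences, and for SAUR24, the one with the smallest. SAUR22 (chr5:5975088-5975337, minus strand) and SAUR23 (chr5:5975530-5975779, plus strand) are neighbours that start away from each other, with 692 bases and no annotated gene between their start sites, and SAUR24 follows at chr5:5983433-5983682 on the plus strand. Each is written 5′ to 3′ on its gene's own strand, with capitals at the auxin response element TGTCTC, here as its reverse complement:
SAUR22: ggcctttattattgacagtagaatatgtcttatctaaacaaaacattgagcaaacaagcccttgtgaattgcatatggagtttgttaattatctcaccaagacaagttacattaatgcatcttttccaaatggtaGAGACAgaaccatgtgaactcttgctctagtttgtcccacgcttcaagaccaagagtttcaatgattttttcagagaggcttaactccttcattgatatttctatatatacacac
SAUR23: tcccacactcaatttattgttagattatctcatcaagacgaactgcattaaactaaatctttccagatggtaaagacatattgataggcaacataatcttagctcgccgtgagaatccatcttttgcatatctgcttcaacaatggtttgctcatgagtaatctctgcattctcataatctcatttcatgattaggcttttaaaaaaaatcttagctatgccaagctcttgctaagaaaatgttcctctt
SAUR24: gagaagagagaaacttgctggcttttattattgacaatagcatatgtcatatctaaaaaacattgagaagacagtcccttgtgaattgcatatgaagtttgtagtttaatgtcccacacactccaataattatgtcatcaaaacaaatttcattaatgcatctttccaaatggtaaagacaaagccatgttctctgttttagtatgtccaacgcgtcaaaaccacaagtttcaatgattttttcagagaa
The 300-base promoter windows (250 bases before to 50 after the start) of SAUR22 and SAUR23 were 52.2% identical, those of SAUR22 and SAUR24 63.7% and those of SAUR23 and SAUR24 47.1%. Over all 15 pairs of the run, identity ran from 47.1% for SAUR21 and SAUR23 to 75.3% for SAUR19 and SAUR22. SAUR20 and SAUR22 held TGTCTC on either strand, and SAUR19, SAUR21, SAUR23 and SAUR24 did not. Over all 59 SAUR genes, 9 windows (15.3%) held TGTCTC against 14.2% of 27443 protein-coding promoters, 2 held TGTCGG (3.39% against 5.12%) and 1, SAUR59, held the G-box CACGTG (1.69% against 7.68%). The CArG box, the motif that MADS-domain proteins bind, occurred in 3.05% of all windows and in that of SAUR14 alone among the 59, beginning 36 bases before its start; with 10 bases on either side and the box in capitals it reads
SAUR14: acttttgaaaCCAATAAAGGgttatctaca
A match is a run of letters and no evidence of binding.

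Most SAUR transcripts were scarce, and a few made up most of the family's total. The summed level of all 59 genes was 220 ± 22.8 CPM in Col-0 meristems, 231 ± 4.26 in ful-7 meristems, 291 ± 24 in Ler pistils and 320 ± 77.9 in ful-1 pistils (SD, n = 3 each), where library 3 alone held 409 CPM. In each library the 5 most abundant genes gave 49.7% to 57.4% of that sum. Per kilobase of exon, SAUR50 led in Col-0 meristems at 57.7 ± 3.72 CPM per kb (SD, n = 3), ahead of SAUR51 at 34.0 ± 10.4. SAUR14, SAUR49 and SAUR8 followed at 14.1 ± 5.72, 13.4 ± 4.01 and 10.8 ± 3.33 CPM per kb, and these 3 lay within their spread. SAUR50 and SAUR16 are known from seedlings, where light induces them in the opening cotyledons, and SAUR49 has been linked to leaf senescence. In Ler pistils SAUR16 and SAUR51 came first at 38.9 ± 3.79 and 38.2 ± 2.86 CPM per kb, which did not differ beyond their spread. SAUR14, SAUR49 and SAUR9 followed at 25.7 ± 2.12, 24.8 ± 11.7 and 24.5 ± 1.13 CPM per kb, again within their spread. SAUR51, SAUR14 and SAUR49 were thus among the first 5 in both wild types, while SAUR50, SAUR8, SAUR16 and SAUR9 were among them in 1 only.

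**Figure D1:**
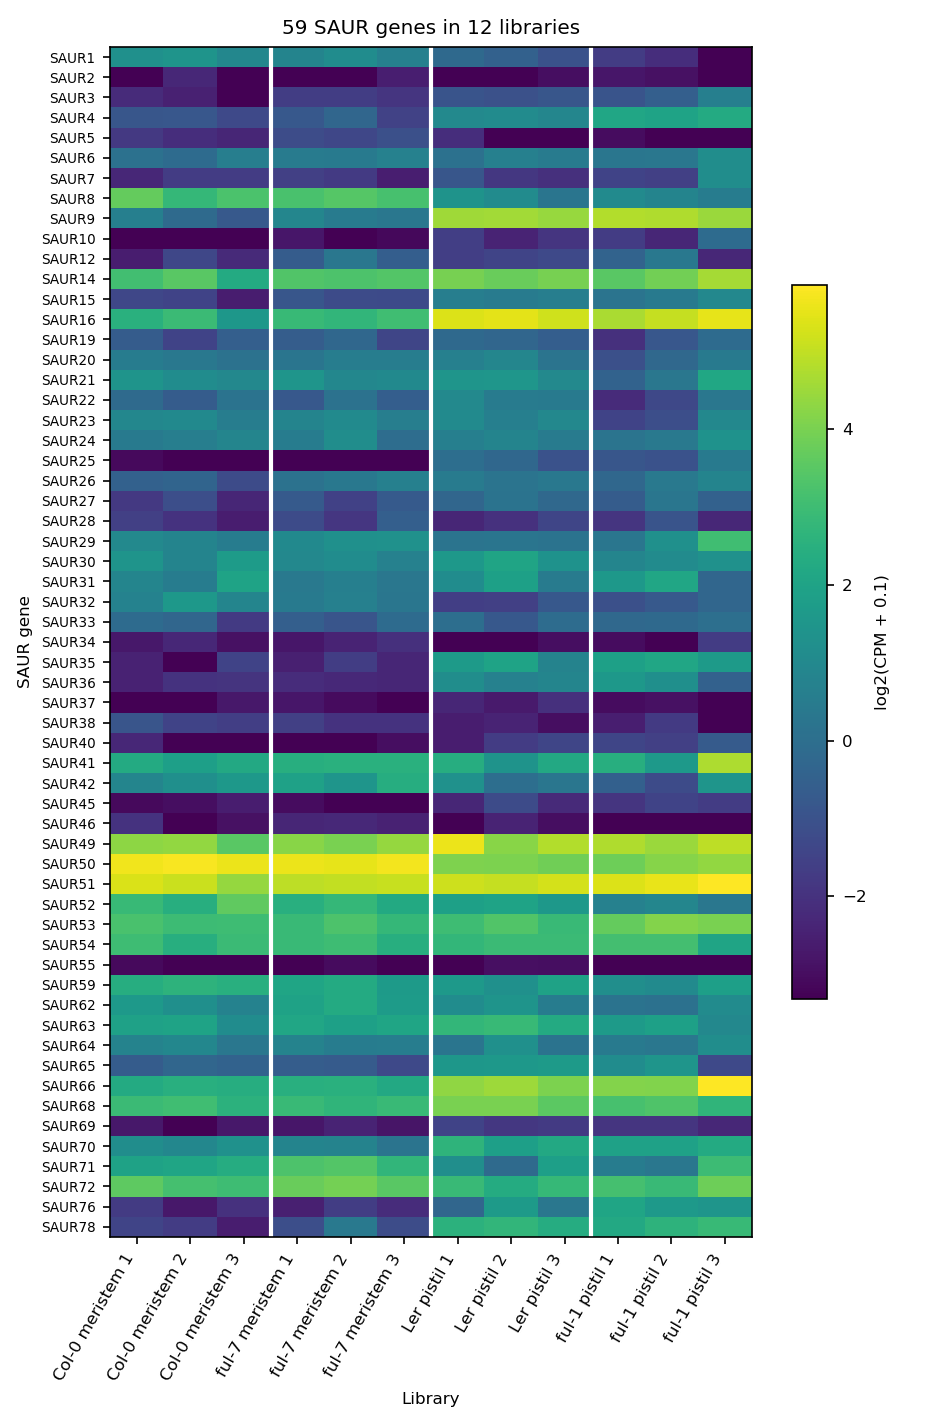
Level of each of the 59 SAUR genes (rows, by SAUR number) in each of the 12 libraries (columns, by group), coloured by log2(CPM + 0.1). SAUR9 and SAUR16 are bright in the pistil columns, SAUR50 in the meristem columns, and SAUR2 and SAUR55 are dark throughout.

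SAUR10 (AT2G18010), at chr2:7833782-7834653, was at the edge of detection in all 12 libraries. It had 0 counts in each Col-0 meristem library and 4, 0 and 1 in ful-7. In Ler pistils it had 7, 3 and 6 counts, and in ful-1 pistils 9, 3 and 8, so both genotypes overlapped. Its ful-1 to Ler ratio of counts per total count was 1.53 with an exact 95% interval of 0.754 to 3.16, from 20 and 16 counts, and 1.1 (0.477 to 2.49) without library 3, which held 8 of the 20. Between Ler pistils and Col-0 meristems, with 16 and 0 counts, the exact 95% interval of the ratio began at 6.25, and against a floor of 3 counts over the Col-0 group Ler was at least 8.64-fold higher, taking the 16 counts as they stand. These intervals and floors cover counting error only. SAUR10 was below the low-count filter in all 4 comparisons. With no filter, edgeR gave it an adjusted p of 0.683 in pistils, 0.536 in meristems and 0.00723 between the wild types. With so few counts, no change of FUL's known target was detected in either mutant, and the pistil interval spans both a fall and a rise. SAUR2, SAUR34, SAUR37, SAUR45, SAUR46, SAUR55 and SAUR69 were also below the filter in all 4 comparisons, and with no filter SAUR69 alone of these passed, between the wild types (edgeR adjusted p = 0.0291). SAUR45 entered the fit of both tissues when ful-1 library 3 was left out (adjusted p = 0.424). In all, 46 of the 59 genes passed in pistils, 45 in meristems, 50 in the fit of both tissues and 46 in the comparison of the wild types.

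With all 6 pistil libraries, no SAUR gene passed the threshold between ful-1 and Ler. The background was itself small, 0.186% of 23674 tested genes. At an unadjusted p under 0.05 there were 7 SAUR genes (15.2% of 46, against 10.3% of all genes), and DESeq2 called 4 SAUR genes and 3.92% of all genes. The median log2 fold change of the 46 was 0.03, and that of all tested genes 0.01. The 5 lowest p-values belonged to SAUR4, SAUR52, SAUR53, SAUR63 and SAUR1. SAUR4 (AT4G34800), at chr4:16596640-16597368, stood at 1.90, 2.04 and 1.78 CPM in Ler and at 4.25, 3.94 and 4.84 in ful-1, and SAUR53 (AT1G19840) at 7.89, 10.1 and 7.27 in Ler and at 12.9, 17.5 and 16.2 in ful-1. In both genes the ful-1 libraries, library 3 included, lay above the Ler libraries without overlap. Their log2 fold changes were 1.22 ± 0.27 (SE; edgeR adjusted p = 0.231) and 0.92 ± 0.25 (adjusted p = 0.314). SAUR52 (AT1G75590), at chr1:28382813-28383769, stood at 3.58, 3.93 and 2.90 CPM in Ler and at 1.52, 1.74 and 1.13 in ful-1, again without overlap but downward, at −1.21 ± 0.28 (adjusted p = 0.251). SAUR63 (AT1G29440), whose relatives promote elongation of hypocotyls and stamen filaments, stood at 6.73, 7.20 and 4.76 CPM in Ler and at 3.07, 3.58 and 1.85 in ful-1 (−1.11 ± 0.31, adjusted p = 0.325). SAUR63 shares 25.6% of its exon length with AT1G29435 on the opposite strand, and the counts do not separate strands, so its level is uncertain. Of its stretches of 150 bases, 9.93% also occur elsewhere in the genome, as do 8.23% of those of SAUR68 and 1.90% of those of SAUR62. The counts of these genes therefore also depend on how reads that fit several copies were handled. SAUR1 (AT4G34770) was the lowest of them, at 0.773, 0.620 and 0.395 CPM in Ler against 0.211, 0.131 and 0 in ful-1 (−2.04 ± 0.62, adjusted p = 0.354). Over the 46 genes, all ful-1 libraries lay above all Ler libraries for 5 and below for 7, where 13.3% and 13.1% of all tested genes did so.

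Without ful-1 library 3, 7 SAUR genes passed the threshold, SAUR4 and SAUR12 higher and SAUR21, SAUR22, SAUR23, SAUR52 and SAUR63 lower in ful-1. That is 15.2% of 46 tested, close to the 13.4% of 24068 genes called in the same fit, so the count itself does not set the family apart. Upward calls were 4.35% of SAUR genes against 5.12% of all genes, and downward calls 10.9% against 8.26%. The median log2 fold change of the 46 was −0.27 and that of all genes 0.01. The estimated biological coefficient of variation fell from 0.413 to 0.157 when library 3 was left out. Leaving out any other pistil library gave 0 SAUR calls, in fits that called at most 1 gene of 24028 (0.00416%). With all 6 libraries kept and each weighted by its spread (voom with sample weights, where library 3 received 0.0400 and the others 1.03 to 3.29), 17 SAUR genes passed, 4 higher and 13 lower, where 23.1% of all genes did, and all 7 genes above were among them.

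SAUR19 to SAUR24 gave 3 of the 5 downward calls. SAUR23 stood at 2.00, 1.45 and 1.83 CPM in Ler and at 0.258 and 0.361 in ful-1 libraries 1 and 2. Library 3 was at 1.85, inside the Ler range. Without it the log2 fold change was −2.56 ± 0.30 (SE; edgeR adjusted p = 0.00578), and with it −1.21 ± 0.82 (adjusted p = 0.564). SAUR22 stood at 1.90, 1.33 and 1.27 CPM in Ler and at 0.117, 0.296 and 1.13 in ful-1 (−1.75 ± 0.84 with all 6 libraries, adjusted p = 0.499, and −2.95 ± 0.45 without library 3, adjusted p = 0.0122). Here even library 3 was below every Ler library, though narrowly. These values rest on few reads: SAUR22 had 25 counts over all ful-1 pistil libraries against 149 over Ler, and SAUR23 had 40 against 176. SAUR21, the most abundant of the run in Ler, stood at 2.64, 2.72 and 1.92 CPM there and at 0.633, 1.15 and 4.33 in ful-1 (−0.23 ± 0.76 with all 6 libraries, adjusted p = 0.896, and −1.50 ± 0.33 without library 3, adjusted p = 0.0375). For SAUR21 library 3 was the highest of the 6. SAUR20 and SAUR19 did not pass, at −1.42 ± 0.40 (adjusted p = 0.0710) and −1.29 ± 0.51 (adjusted p = 0.150) without library 3 and at −0.91 ± 0.54 (adjusted p = 0.526) and −0.66 ± 0.66 (adjusted p = 0.692) with it. SAUR24 had the smallest difference, with 1.45, 1.65 and 1.32 CPM in Ler and 1.06, 1.22 and 2.47 in ful-1 (−0.42 ± 0.22 without library 3, adjusted p = 0.259, and 0.11 ± 0.45 with it, adjusted p = 0.918). Summed over the run, which does not depend on how reads were split among the 6 copies, the level was 10.2, 9.62 and 7.98 CPM in Ler and 2.58, 4.24 and 11.8 in ful-1. On this TMM scale libraries 1 and 2 were thus below every Ler library and library 3 above all of them. Relative to library totals without the TMM factors, library 3 would lie inside the Ler range. The fall of this run in pistils thus rests on ful-1 libraries 1 and 2. In meristems the sum was 7.5 to 8.39 CPM in Col-0 and 6.46 to 9.09 in ful-7, which overlap.

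**Figure D2:**
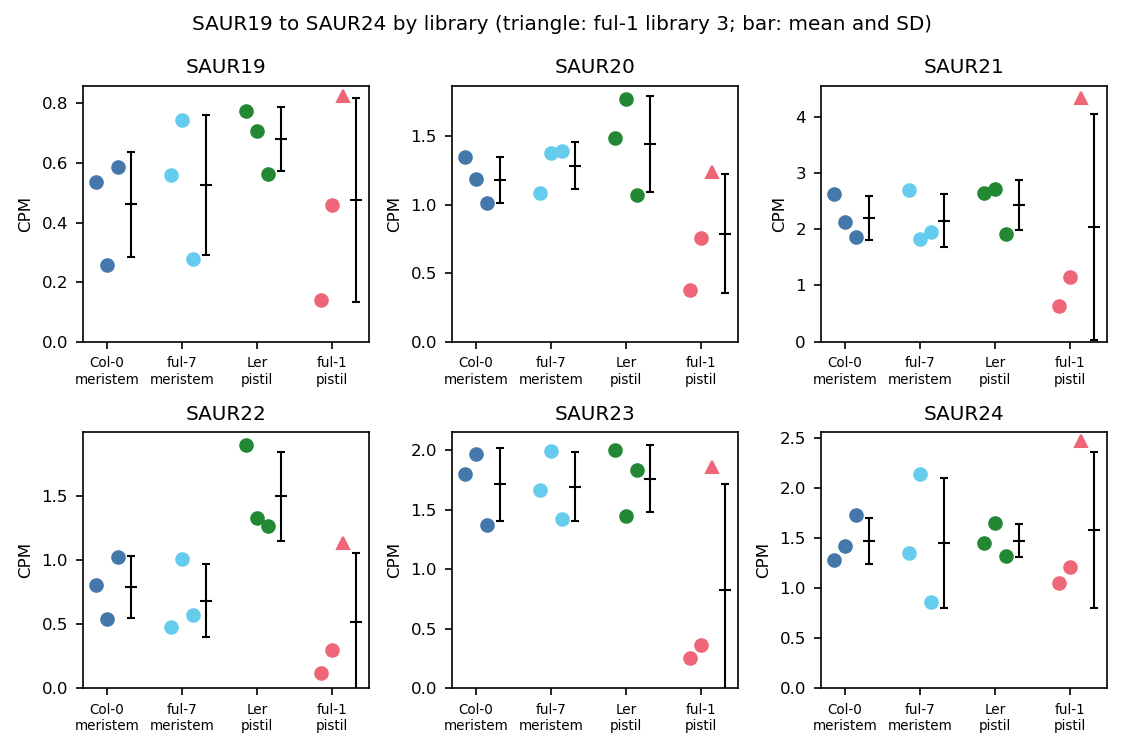
Level (CPM, linear axis from 0) of SAUR19 to SAUR24 in each library of the 4 groups, with group mean and SD as a black bar and ful-1 library 3 as a triangle. In SAUR22 and SAUR23 the 2 ful-1 circles lie far below the Ler circles, while the triangle of SAUR23 lies among them and that of SAUR21 above them.

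Of the 4 called genes outside this run, 3 had library 3 on the same side of Ler as the other 2 ful-1 libraries. SAUR4 rose by 1.06 ± 0.16 on the log2 scale without library 3 (adjusted p = 0.0121), and SAUR52 changed by −1.13 ± 0.21 (adjusted p = 0.0240) and SAUR63 by −0.95 ± 0.22 (adjusted p = 0.0449). SAUR12 (AT2G21220), at chr2:9089226-9090052, stood at 0.226, 0.266 and 0.310 CPM in Ler and at 0.657 and 1.18 in ful-1 libraries 1 and 2, with library 3 at 0.103, from 1 count. Its log2 fold change was 1.37 ± 0.65 (adjusted p = 0.499) with library 3 and 1.70 ± 0.38 (adjusted p = 0.0389) without it. SAUR53 was just outside the threshold without library 3 (0.81 ± 0.20, adjusted p = 0.0504), and so was SAUR1 (−1.77 ± 0.45, adjusted p = 0.0555). In the run SAUR62 to SAUR68 on chromosome 1 (chr1:10302585-10323239), all 6 genes had a log2 fold change below 0 without library 3 and only SAUR63 passed. The summed level of that run was 48.6, 54.1 and 38.1 CPM in Ler and 34.3, 35.4 and 69.2 in ful-1, where library 3 was highest through SAUR66 alone, at 56.6 CPM against 16.3 to 22.8 in Ler. SAUR41 and SAUR29 were other genes in which library 3 stood out, at 26.6 CPM against 2.54 to 5.15 in Ler for SAUR41 and at 8.24 against 1.01 to 1.09 for SAUR29, while ful-1 libraries 1 and 2 were at 5.33 and 2.99 and at 1.13 and 2.33.

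**Figure D3:**
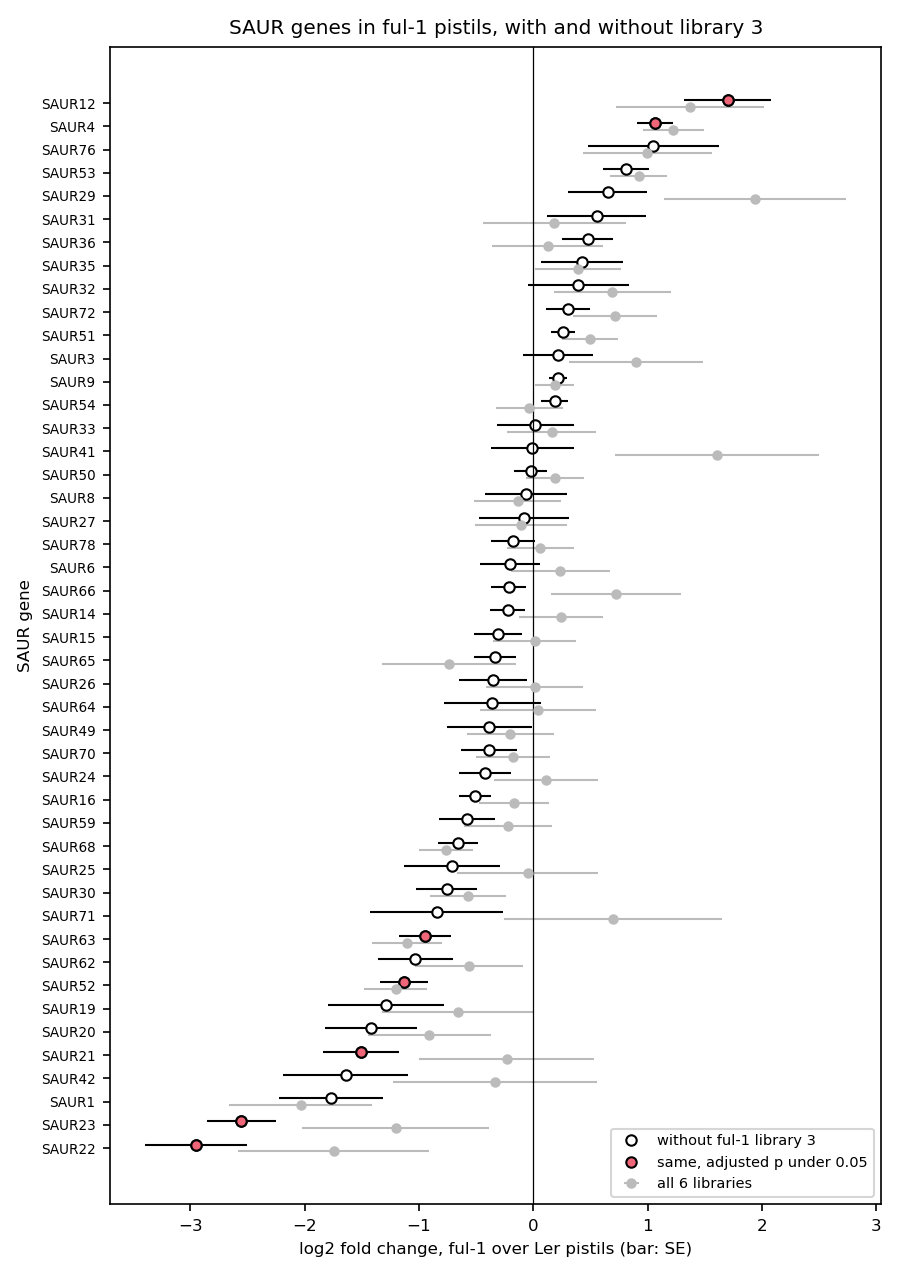
Log2 fold change of ful-1 over Ler pistils with its SE for the 46 tested SAUR genes, in the fit of all 6 libraries (grey) and without ful-1 library 3 (white, or red where the adjusted p was under 0.05). The 7 red points are SAUR12 and SAUR4 on the right and SAUR63, SAUR52, SAUR21, SAUR23 and SAUR22 on the left, and the grey points of SAUR21 to SAUR23 lie nearer to 0.

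Tissue markers moved in the same pistil libraries. The 5 leaf mesophyll markers (photosynthesis genes) summed to 9866 to 10782 CPM in Ler, to 5766 and 6604 in ful-1 libraries 1 and 2 and to 11794 in library 3, and 4 of the 5 passed downward without library 3. The 5 pistil markers were AG, SHP1, SHP2, STK and CRC. They summed to 320 to 352 CPM in Ler, to 656 and 671 in ful-1 libraries 1 and 2 and to 433 in library 3. Of these markers 3 of 5 passed upward without library 3. For them, regulation within cells and a change of tissue make-up cannot be told apart. The 5 seed coat and embryo markers, of which 1 of 3 tested passed upward, summed to 9.73 to 26.7 CPM in Ler, 54 and 55.8 in ful-1 libraries 1 and 2 and 5.05 in library 3. The 5 pollen and anther markers ranged from 597 to 1874 CPM in Ler and from 621 to 811 in ful-1, and none passed. The part of these markers in the SAUR values was not tested.

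In meristems no SAUR gene passed the threshold between ful-7 and Col-0, where 0.292% of 22605 genes did. At an unadjusted p under 0.05 there were 9 of 45 (20.0%, against 15.1% of all genes), 8 of them upward. DESeq2 called 2, SAUR71 and SAUR12, both higher, and 3.59% of all genes. The median log2 fold change was 0.11 for the SAUR genes and −0.02 for all genes. Col-0 library 3 stood apart in leaf markers, which summed to 5451 CPM against 7784 and 8018 in the other Col-0 libraries. Without it, 5 of 47 SAUR genes (4 upward) had an unadjusted p under 0.05, where 14.2% of all genes did, and the median was 0.03. Without ful-7 library 1 there were 4, all upward, where 6.64% of all genes did. Without Col-0 library 1 there were 12 of 47 (10 upward, against 17.4% of all genes), and the median was 0.24. Without Col-0 library 2 there were 10 of 48 (7 upward, against 14.3%). Omission of ful-7 library 2 gave 7 of 45 (6 upward, against 7.7%), and of ful-7 library 3 gave 6 of 48 (all upward, against 15.4%). SAUR71 (AT1G56150) had the lowest p, with 3.76, 4.11 and 5.07 CPM in Col-0 and 9.73, 10.4 and 6.53 in ful-7. These groups did not overlap, and the log2 fold change was 1.04 ± 0.21 (SE; edgeR adjusted p = 0.149). SAUR12 stood at 0.0672, 0.285 and 0.114 CPM in Col-0 and at 0.536, 1.14 and 0.570 in ful-7, also without overlap (2.32 ± 0.60, adjusted p = 0.203). It was the only SAUR gene with a log2 fold change above 1 in meristems and also in pistils. SAUR26 (AT3G03850) stood at 0.622, 0.673 and 0.326 CPM in Col-0 and at 0.999, 1.18 and 1.5 in ful-7 (1.19 ± 0.36, adjusted p = 0.248). It belongs to the run SAUR26 to SAUR29 on chromosome 3 (chr3:976715-983768), genes tied to thermo-responsive growth in Arabidopsis accessions. All 4 genes of that run had a log2 fold change above 0, with a median of 1.1, and the run summed to 1.83 to 2.96 CPM in Col-0 and 3.75 to 4.99 in ful-7. SAUR5 and SAUR62 completed the 5 lowest p-values, at 1.27 ± 0.43 (adjusted p = 0.272) and 0.77 ± 0.28 (adjusted p = 0.282). Across the 45 genes, ful-7 libraries lay wholly above Col-0 for 9 and wholly below for 3, where 12.2% and 10.7% of all tested genes did so.

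The difference between tissues, taken as the ful-1 effect in pistils minus the ful-7 effect in meristems, was called for no SAUR gene in the fit of all 12 libraries. There 0.751% of 25154 genes passed, DESeq2 called 2 SAUR genes and 4.91% of all genes, and 8 of the 50 tested had an unadjusted p under 0.05 (16.0%, against 12.2% of all). The 5 lowest p-values were those of SAUR63 (−1.41 ± 0.43, SE; edgeR adjusted p = 0.214), SAUR53 (0.93 ± 0.29, 0.221), SAUR62 (−1.41 ± 0.53, 0.323), SAUR1 (−1.66 ± 0.66, 0.345) and SAUR68 (−0.74 ± 0.31, 0.377). Without ful-1 library 3, 4 SAUR genes passed of 52 (7.69%, against 10.2% of 25577 genes), all with the lower value in pistils, as for 6.94% of all genes. For SAUR23 the difference was −2.55 ± 0.40 (adjusted p = 0.00311), with a meristem effect of −0.02 ± 0.25. For SAUR22 it was −2.69 ± 0.67 (adjusted p = 0.0288), with a meristem effect of −0.25 ± 0.41. SAUR62 and SAUR42 pointed apart in the tissues, with differences of −1.81 ± 0.46 (adjusted p = 0.0305) and −2.40 ± 0.64 (adjusted p = 0.0391). SAUR62 (AT1G29430) stood at 3.03, 2.30 and 1.6 CPM in Col-0, 3.85, 4.82 and 3.2 in ful-7, 2.09, 2.60 and 1.35 in Ler and 1.03, 0.986 and 2.06 in ful-1. SAUR42 (AT2G28085) stood at 1.71, 2.28 and 2.85 CPM in Col-0, 3.70, 2.65 and 5.11 in ful-7, 2.42, 0.885 and 1.13 in Ler and 0.610, 0.329 and 2.68 in ful-1. For both genes the third ful-1 library lay apart from the first 2, and neither passed edgeR's threshold within a single tissue. Of the stretches of 150 bases in SAUR62, 1.90% also occur elsewhere in the genome. In pistils, voom with sample weights called both, and DESeq2 without library 3 called SAUR42.

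**Figure D4:**
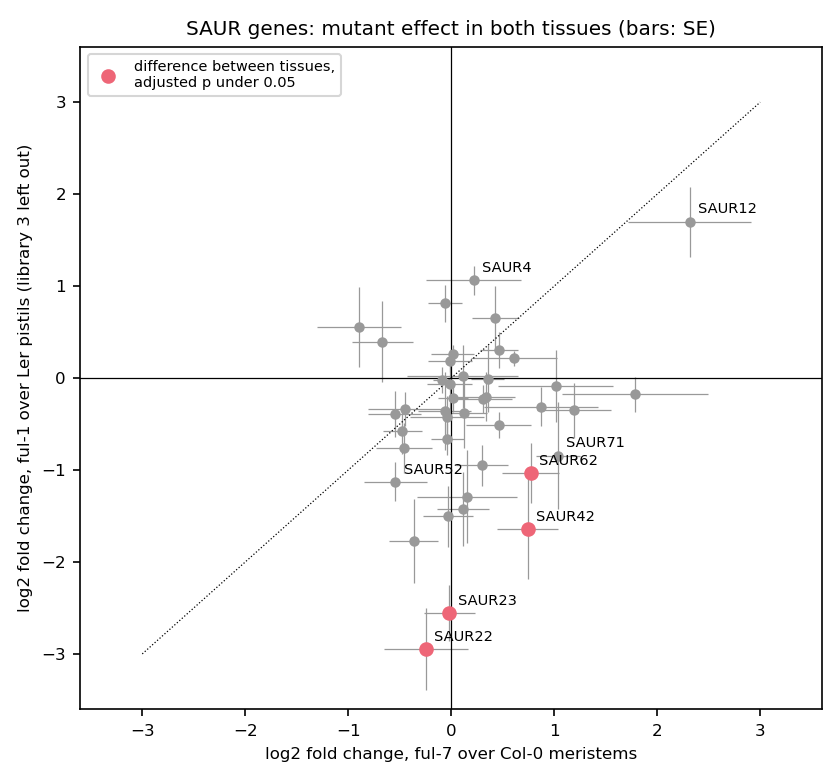
Log2 fold change of ful-7 over Col-0 meristems (x) against ful-1 over Ler pistils without library 3 (y) for the SAUR genes tested in both, with SE bars and a dotted line of equal effects. The 4 red points, SAUR22, SAUR23, SAUR42 and SAUR62, are those whose difference had an adjusted p under 0.05 and lie below the line, and SAUR12 lies far to the upper right.

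More SAUR genes differed between the wild types than between either mutant and its wild type. Between Ler pistils and Col-0 meristems, 25 of 46 tested SAUR genes passed (54.3%, against 60.9% of 24009 genes). Of these, 19 were higher in Ler pistils (41.3%, against 31.8% of all genes) and 6 were lower (13%, against 29.1%). SAUR9 (AT4G36110) stood at 1.46, 0.802 and 0.489 CPM in Col-0 meristems and at 23.4, 23.9 and 21.9 in Ler pistils, a log2 fold change of 4.66 ± 0.35 (SE; edgeR adjusted p = 4.44e-05). SAUR78 (AT1G72430), linked to ethylene responses in leaf growth, stood at 0.269, 0.207 and 0.0652 CPM and at 5.93, 6.52 and 5.05 (5.03 ± 0.42, adjusted p = 6.96e-05). SAUR25 (AT4G13790) was all but absent from the meristem, with 1 count in the 3 Col-0 libraries against 67 in Ler, a ratio of counts per total count of 109 with an exact 95% interval of 18.8 to 4350. SAUR16 (AT4G38860) rose from 5.55, 7.58 and 2.82 CPM to 41.9, 44.1 and 36.4 (2.97 ± 0.32, adjusted p = 0.000212). None of these 4 overlapped between the wild types, where 35.3% of all tested genes lay wholly higher in Ler pistils. SAUR36, known from leaf senescence, SAUR35 and SAUR76 followed with log2 fold changes of 3.74, 4.48 and 3.55, and SAUR15, an auxin-induced gene with a role in root branching, with 2.80. SAUR4, SAUR65, SAUR66 and SAUR68 were higher by 2.23, 2.22, 1.95 and 1.04. All 3 genes of the run SAUR14 to SAUR16 on chromosome 4 (chr4:18124978-18131284) were among the 19, and 4 of the 6 genes of SAUR62 to SAUR68.

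The 6 genes lower in Ler pistils were SAUR50, SAUR8, SAUR32, SAUR1, SAUR59 and SAUR52. SAUR50 (AT4G34760), the leading SAUR transcript of the meristem, stood at 50.9, 55.1 and 48.5 CPM in Col-0 and at 17.0, 16.3 and 14.4 in Ler, a log2 fold change of −1.68 ± 0.10 (edgeR adjusted p = 1.6e-05). SAUR32 (AT2G46690), which acts in the apical hook of seedlings, had the largest fall at −2.66 ± 0.41 (adjusted p = 0.00114), from 1.6, 2.85 and 1.71 CPM to 0.226, 0.236 and 0.479. SAUR8 and SAUR1 followed at −2.35 ± 0.35 and −1.89 ± 0.32, and SAUR52 and SAUR59 at −1.23 ± 0.32 and −0.83 ± 0.21. In the run SAUR1 to SAUR5 with SAUR49 and SAUR50 (chr4:16577180-16599568), neighbours thus went both ways, with SAUR3 and SAUR4 higher and SAUR1 and SAUR50 lower in pistils. Of the run SAUR19 to SAUR24, SAUR22 alone passed, higher in Ler at 0.91 ± 0.33 (adjusted p = 0.0449).

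**Figure D5:**
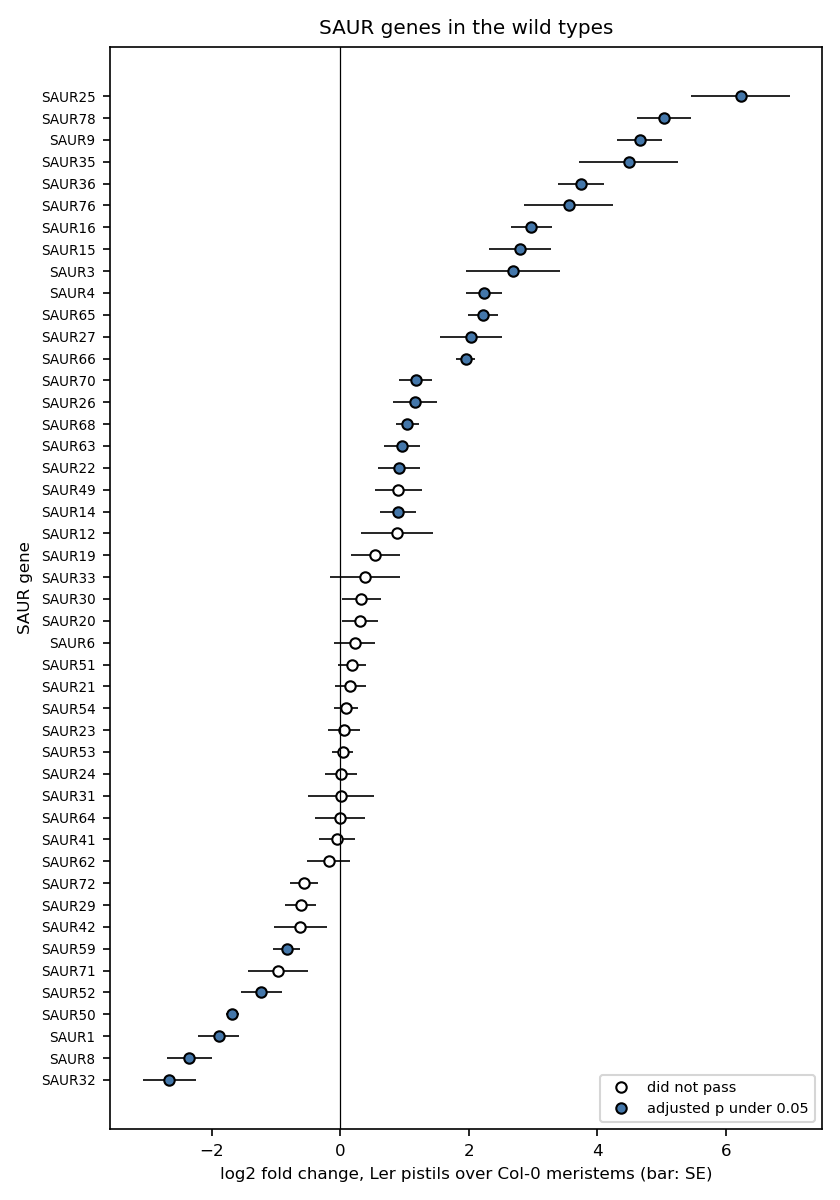
Log2 fold change of Ler pistils over Col-0 meristems with its SE for the 46 tested SAUR genes, in order of size, with blue points at an adjusted p under 0.05. SAUR25, SAUR78, SAUR9 and SAUR35 are at the top and SAUR32, SAUR8, SAUR1 and SAUR50 at the bottom; the fitted value of SAUR25, from 1 Col-0 count, depends on the prior count.

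Genes that act with the SAURs were read in the same fits. In ful-1 pistils with all 6 libraries and in ful-7 meristems, no gene passed among 9 PP2C.D phosphatases, 11 plasma membrane proton pumps, 6 auxin receptors, 10 upstream transcription factors, 22 of 24 Aux/IAA repressors that could be tested and 7 GH3 auxin-conjugating enzymes. In meristems 1 pump and 1 GH3 enzyme were below the low-count filter. Without ful-1 library 3, 1 upstream factor and 1 GH3 enzyme passed downward. PIF4, a light- and temperature-controlled factor known to act upstream of SAUR19 to SAUR24, stood at 9.12, 8.44 and 10.3 CPM in Ler and at 4.34, 3.22 and 0.824 in ful-1, below Ler in all 3 libraries, and changed by −1.33 ± 0.17 (SE; edgeR adjusted p = 0.0080 without library 3). In meristems PIF4 stood at 27.0, 28.7 and 28.1 CPM in Col-0 and at 25.9, 21.1 and 28.4 in ful-7, which overlap. In library 3 the SAUR19 to SAUR24 sum was 11.8 CPM on the TMM scale. Relative to library totals without the TMM factors it would lie inside the Ler range. A link between PIF4 and the levels of that run was not tested. GH3.17 changed by −0.58 ± 0.14 (adjusted p = 0.0467). For the difference between tissues without library 3, PIF4 passed at −1.18 ± 0.21 (adjusted p = 0.0057), and 3 of 23 Aux/IAA genes passed upward, where 3.22% of all genes did. IAA27, an auxin-signalling repressor, was the 1 list gene with a difference between tissues in the fit of all 12 libraries, at 1.42 ± 0.24 (adjusted p = 0.0225). It stood at 68.3, 64 and 82.6 CPM in Ler and 102, 96.6 and 104 in ful-1, against 69.6, 71.0 and 96.6 in Col-0 and 40.2, 43.9 and 41.5 in ful-7. Between the wild types, where 31.8% of all genes were higher and 29.1% lower in Ler pistils, 5 of 9 phosphatases were higher in Ler pistils and none lower, led by PP2C.D3 at 1.01 ± 0.16 (adjusted p = 0.00119). Of the 11 pumps, 6 were higher and 1 lower, with the pollen pumps AHA8 and AHA6 at 4.95 ± 0.37 and 4.15 ± 0.74 beside pollen and anther markers that summed to 597 to 1874 CPM in Ler and 9.29 to 38.3 in Col-0. Of 6 receptors 3 were lower, of 10 upstream factors 1 was higher and 4 lower, of 22 Aux/IAA genes 11 were higher and 3 lower, and of 7 GH3 enzymes 3 were higher.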

How the data were processed

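The deposited table holds whole-number counts per gene, which the authors made by mapping to TAIR10 with STAR 2.7.0b and assigning reads with featureCounts 1.6.0, per the submitters' processing notes; the sources used here do not give trimming, strand setting or the handling of reads with several positions. Of 43 gene pairs overlapping on opposite strands by at least 90%, with 100 counts or more, 42 had counts within 10% of each other, so strands were not separated. Columns name a group and no replicate, so libraries are numbered in table order. No 2 libraries were identical.

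Genes were kept by filterByExpr, scaled by TMM and compared with edgeR 4.0.16 (quasi-likelihood test, Benjamini-Hochberg at 0.05 over all tested genes) in R 4.3.3. Printed CPM share 1 set of TMM factors over the 12 libraries, and CPM per kb divides by exon length from RefSeq TAIR10.1, from which sequences and gene names were also read. P-values reflect only how these pooled samples vary. Scripts were tested on simulated data. Alternatives were DESeq2 1.42.0, its size factors, other filters, robust edgeR, voom with sample weights (limma 3.58.1), a fit of all 12 libraries and omission of each library. After the data were seen, 2 were added: DESeq2 and its size factors, each without ful-1 library 3.

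The members and lists were chosen with earlier results of these data known. Named are SAUR10, the SAUR genes past the threshold (at most 12 in each direction by p, otherwise the 5 lowest p) in each comparison and in pistils without ful-1 library 3, the 5 most abundant per kb in each wild type, runs of neighbours, and up to 4 called genes per list. SAUR62 and SAUR42 in the fit without library 3, other genes in counts of runs, PIF4 in meristems and genes of the SAUR19 run that did not pass were added after their values were seen.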

Additional observations from a re-analysis of the deposited data

Results flagged for a closer look

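The mutant effect differed between pistils and meristems for 4 SAUR genes when ful-1 library 3 was left out, by edgeR's test of the difference itself. That is 7.69% of 52 tested, against 10.2% of 25577 genes, so the count does not set the family apart. Values are on the log2 scale and as pistil minus meristem. The difference was −2.55 for SAUR23 and −2.69 for SAUR22, −1.81 for SAUR62 and −2.40 for SAUR42. With all 12 libraries none of the 4 passed in edgeR, where the differences were −1.32, −1.61, −1.41 and −1.23, or in DESeq2. All 4 passed with voom and sample weights, which called 13 of 50 SAUR genes (26.0%) and 20.1% of all genes. In the pistil fit that method gave library 3 a weight of 0.0400, close to leaving it out, so its calls are no separate support.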

How the results depend on the processing

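No paired analysis was possible because the deposited columns carry no replicate numbers. In pistils, where edgeR called 0 SAUR genes in either direction, DESeq2 called 2 higher and 2 lower and voom with sample weights 4 higher and 13 lower (10.5% and 12.5% of all genes). Omission of 1 library gave 0 to 2 higher and 0 to 5 lower, and the calls came only without ful-1 library 3. Without that library, DESeq2 size factors in edgeR gave 2 higher and 5 lower, the same 7 genes, and DESeq2 3 higher and 9 lower (7.23% and 10.8% of all genes), which held all 7. In meristems, DESeq2 called 2 higher and voom 1 higher, and omission of any library gave 0. For the difference between tissues, DESeq2 called 1 higher and 1 lower and voom 2 higher and 11 lower (9.74% and 10.4% of all genes), and omission of 1 library gave 0 higher and 0 to 4 lower, with 0.222% to 10.2% of all genes called. Without ful-1 library 3, size factors gave 4 lower, the same 4 genes, and DESeq2 1 higher and 9 lower (6.56% and 8.71% of all genes). The wild-type counts stayed within 1.5 times under every alternative. The log2 fold change of SAUR21 in pistils turned to 0.25 without ful-1 library 1 and to 0.09 without library 2, and was −1.50 without library 3. Of 526 alternative values for named genes, 475 kept direction and side of the threshold, 49 newly passed and 2 reversed; the cause was not tested. Over all genes, pistil calls numbered 44 in edgeR, 927 in DESeq2, 5458 with voom and 3221 without library 3. SAUR10 and 7 other genes had too few counts to pass the filter in any of the 4 comparisons.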
